A study of Mus musculus with 3 samples.

Results

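The genes described here encode the extracellular side of Wnt signalling: the Wnt ligands, the Frizzled receptors, the receptors and co-receptors that act beside them, and the secreted proteins that hold them back. They were chosen by symbol alone, as every probe whose RefSeq gene starts with Wnt, Fzd or Sfrp followed by a number, or is Dkk1 to Dkk4, Lrp5, Lrp6, Ror1, Ror2 or Ryk. This gave 40 genes and 53 probes, of 18350 genes named on the array and 41174 non-control probes. They were 19 ligands, 10 Frizzled receptors, 3 other receptors and 8 secreted antagonists; no probe could be named for the co-receptor genes Lrp5 and Lrp6. Of the 40 genes, 18 were well above background on all 3 arrays, 3 on some and 19 on none.

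In canonical Wnt signalling a lipid-modified Wnt protein binds a Frizzled receptor together with LRP5 or LRP6, the complex that phosphorylates beta-catenin for destruction is held off, and beta-catenin enters the nucleus to act with TCF and LEF factors. GSK-3 is a kinase of that destruction complex, so a GSK-3 inhibitor acts below the ligands and receptors described here. Other Frizzled signals, often with ROR1, ROR2 or RYK, run through planar cell polarity and calcium instead. In muscle, Wnt ligands are known for inducing the myogenic factors in the embryo and for acting on satellite cells in repair.

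The RNA came from cultures of the mouse muscle precursor line C2C12, whose myoblasts fuse to multinucleate myotubes when serum is lowered, and each of 3 groups had 1 array. The first was untreated myoblasts. The second, BIO cellulates, came from myotubes that had formed in 2% horse serum over 8 days. The antimitotic AraC, at 10 µM, was present between days 2 and 4. The myotubes were taken apart with the microtubule-binding compound myoseverin for 48 h and, from 24 h after its addition, given the GSK-3 inhibitor BIO for 2 days. The third, neurogenic cellulates, was such cells after 250 nM reversine for 48 h, followed by 7 days with all-trans retinoic acid at 1.5 µM in N2-supplemented DMEM/F12. The BIO dose is 2.5 µM in the sample titles and 10 µM in the series text and the treatment protocol, and that of myoseverin is 20 µM in the series text and 30 µM in the treatment protocol. Myotubes before myoseverin, and cellulates without BIO, were not analysed here, so the effects of differentiation, AraC, myoseverin and BIO cannot be told apart, nor can those of medium, reversine, retinoic acid and time. The number of cultures behind an array is not given in the sources used here, and with 1 array a group there is no error between cultures and no test.

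A level below is the log2 processed signal of a probe minus the log2 75th percentile of its array, a fold is a ratio of such scaled signals, and levels are compared between arrays for 1 probe, never between probes. The 75th percentile was 181, 115 and 156 intensity units in myoblasts, BIO cellulates and neurogenic cellulates, and the lowest signals well above background were 13.6, 17.3 and 26.2 units. A gene well above background on 1 of 2 arrays has a bound, written as "at least": its signal over that lowest signal, or over the dim probe's own where this is higher. Some brighter probes were still not well above background, so that lowest signal is not a limit for every probe. Repeat spots within an array set a limit, here called the spot limit, that 95% of differences between single spots would stay inside if they held spot error alone. It was 1.45-fold between the BIO and myoblast arrays, 1.35-fold between the cellulate arrays and 1.40-fold between the neurogenic and myoblast arrays. It pools 129 to 138 repeated probes per array whatever their brightness, so it can be too narrow for faint spots. All 8 skeletal muscle markers were well above background on every array. None of the 3 endothelial markers, and neither of the 2 leukocyte markers with a probe, was so on any. On every array 4 of 4 chondrocyte markers, 5 of 6 astrocyte and glia markers and 3 of 5 adipocyte markers were. Of 5 osteoblast markers 3, 2 and 1 were in myoblasts, BIO cellulates and neurogenic cellulates. Signal above background was therefore not particular to muscle markers.

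Of the 28 member genes with a promoter in the RefSeq table of build GRCm38.p6, the 250 bases before the start were rich in CG steps, with a median of 22 over 31 windows against 6 over all 32851 windows of that length. GC content had medians of 68% and 52.4%. The medians for members measured on some array and for members dim on all were 23 CG steps over 19 windows and 21 over 12. The window of Wnt4, the ligand whose level differed most between arrays, is shown beside that of Wnt8b, which holds the fewest CG steps among measured members with a single window; capitals mark the CG steps, 44 in the first and 5 in the second.
Wnt4 (GRCm38.p6 chr4:137277385-137277634, plus strand): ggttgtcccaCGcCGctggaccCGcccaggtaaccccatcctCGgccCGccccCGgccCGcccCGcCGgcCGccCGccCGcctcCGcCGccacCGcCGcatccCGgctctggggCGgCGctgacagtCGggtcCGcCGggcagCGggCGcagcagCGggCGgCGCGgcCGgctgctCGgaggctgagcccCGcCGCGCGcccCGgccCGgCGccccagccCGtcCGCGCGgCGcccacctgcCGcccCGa
Wnt8b (GRCm38.p6 chr19:44493222-44493471, plus strand): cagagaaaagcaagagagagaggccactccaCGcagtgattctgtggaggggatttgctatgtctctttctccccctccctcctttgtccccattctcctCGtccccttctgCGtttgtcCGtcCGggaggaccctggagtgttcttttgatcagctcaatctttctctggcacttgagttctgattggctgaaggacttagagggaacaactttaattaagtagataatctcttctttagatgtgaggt
Neither window holds CTTTGAA or CTTTGAT, the core letters of TCF and LEF sites, AGGTCA, a nuclear receptor half-site, or CAGCTG, an E-box, on either strand. CTTTGAA occurs in 4.46% of all windows and in that of Dkk1 among members, CTTTGAT in 3.21% and in windows of Wnt11 and Wnt5b, AGGTCA in 14.0% and in that of Wnt16, and CAGCTG in 13.0% and in those of Fzd10 and Wnt9a. These are matches of letters, not sites. Fzd2, Fzd3, Fzd8, Sfrp1 and Wnt7b, all measured, had no entry in the table.

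Each gene was read by the probe used for it, that with the highest mean level. By that probe most of the measured module stood within 2-fold across the 3 cultures, and 4 genes stood outside it. The receptor gene Fzd2 was lower in each later culture, and the ligand gene Wnt4 was lower in neurogenic cellulates. The antagonist gene Sfrp1 was above background in neurogenic cellulates alone, and Fzd3 reached 2-fold in neurogenic cellulates against myoblasts. Second probes of Fzd7, Ror2, Wnt5b and Wnt9a, above background on all arrays, also passed 2-fold against myoblasts in 1 or both cellulate cultures. For BIO cellulates against myoblasts, 0 of 20 members with a value were at least 2-fold higher and 1 was lower, beside 11.2% and 6.01% of all 12828 genes. For neurogenic against BIO cellulates, 1 of 19 was higher and 1 lower, beside 4.16% and 1.8% of 12255 genes. For neurogenic cellulates against myoblasts, 2 of 21 were higher and 2 lower, beside 12.1% and 10% of 12853. None of these counts is over 2 genes. The 20 and the 21 include Ror1 and Wnt8b, whose bounds were at or near 0 and show no direction. The shares of all genes, and the lists of other genes below, hold such bounds too. Of 18 members measured on both arrays, BIO cellulates had 0 higher and 1 lower than myoblasts, beside 8.42% and 6.13% of such genes. The counts for neurogenic cellulates against myoblasts were 1 and 2, beside 9.35% and 11.0%. The 1 of 19 higher and the 1 of 19 lower, each above its share of all genes, are Sfrp1 alone and Wnt4 alone. Over the 18 members above background on all arrays, the median log2 ratios were 0.00, -0.17 and -0.11, and over all genes measured on both arrays 0.01, -0.18 and -0.15. With each array scaled to its median in place of its 75th percentile, BIO cellulates had 0 members higher and 3 lower than myoblasts, neurogenic cellulates 1 higher and 2 lower than BIO cellulates, and 1 higher and 5 lower than myoblasts. The 3 were Fzd2, Wnt4 and Wnt9a and the 5 were Fzd2, Wnt4, Wnt5b, Ror2 and Ryk. That scaling placed 17 of the 18 members measured on both arrays below myoblasts in BIO cellulates, against 8 by the 75th percentile, and 16 in neurogenic cellulates, against 10, so the direction of small differences from myoblasts depended on it. With quantile normalisation the same comparisons gave 0 higher and 0 lower, 1 higher and 1 lower, and 1 higher and 2 lower. The 3 comparisons share arrays, so they are not independent of each other.

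**Figure D1:**
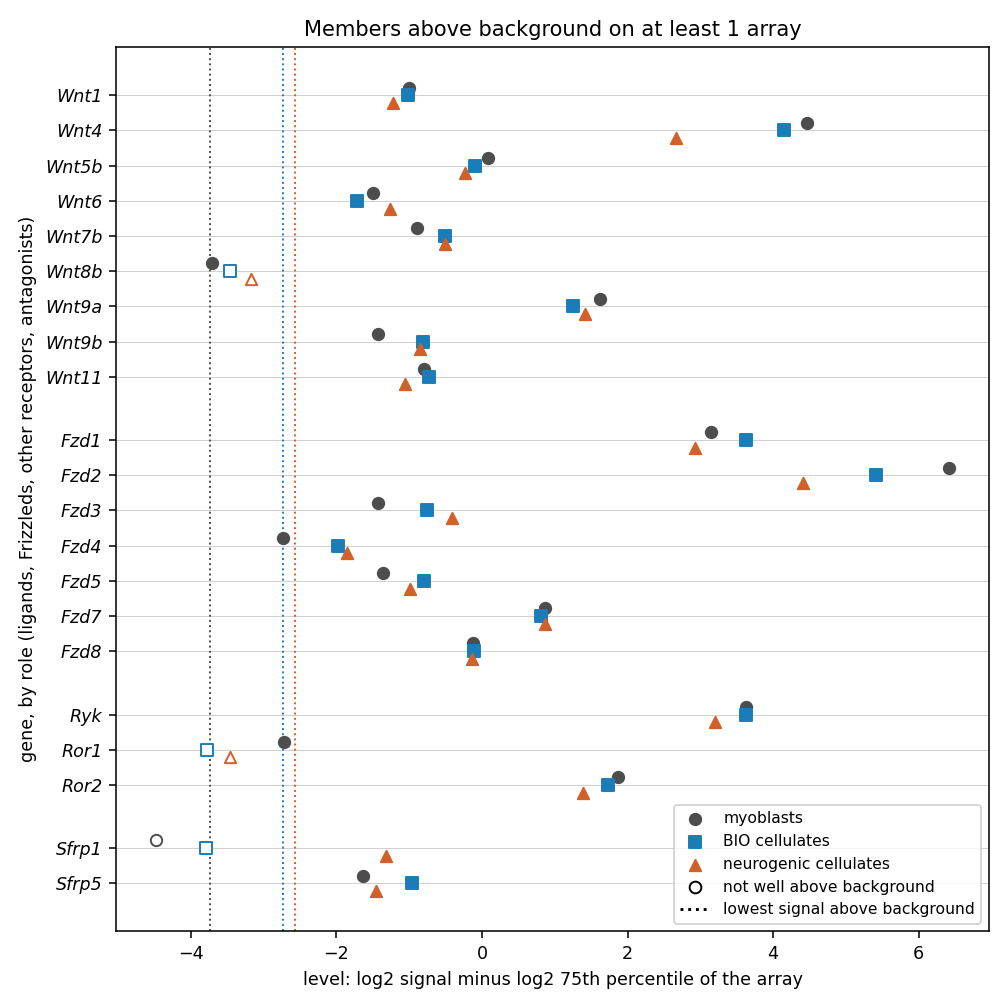
Level of each of the 21 member genes well above background on at least 1 array, as log2 signal minus the log2 75th percentile of the array, by role; filled symbols are well above background, open ones are not, and dotted lines mark the lowest signal well above background on each array. The 3 symbols lie close together for most genes, while those of Fzd2 spread from 6.42 in myoblasts to 4.42 in neurogenic cellulates and Sfrp1 is filled in neurogenic cellulates alone.

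Among the ligands, 8 of 19 genes were well above background on all arrays and by the probe used Wnt4 alone of them was 2-fold different in any comparison. Wnt4, a ligand of kidney and reproductive tract development that is also expressed in muscle, gave 3981, 2038 and 984 intensity units in myoblasts, BIO cellulates and neurogenic cellulates. Its levels were 4.46, 4.15 and 2.66 on the log2 scale. Neurogenic cellulates were low, and myoblasts and BIO cellulates were close on this scale, though not with arrays scaled to their medians, where their log2 ratio was -1.03. The fold was 1.24 lower in BIO cellulates than in myoblasts, inside the spot limit, 2.81 lower in neurogenic than in BIO cellulates, and 3.48 lower in neurogenic cellulates than in myoblasts. Genes of like brightness, meaning those nearest in mean level, had median log2 ratios of -0.19, -0.24 and -0.35 in these comparisons, against -0.31, -1.49 and -1.80 for Wnt4. It has 1 probe on the array, so no second probe bears on this.

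By the probe used, the other 7 ligands measured throughout were within 2-fold in all comparisons, but second probes of Wnt9a and Wnt5b gave log2 ratios of 1.16 and 1.49 in BIO cellulates and 0.91 and 1.35 in neurogenic cellulates against myoblasts. By its brighter probe Wnt9a, which acts in joint formation, had levels of 1.63, 1.25 and 1.42, and its log2 ratio of -0.38 in BIO cellulates was inside the spot limit. Wnt5b, a ligand linked to signalling without beta-catenin, by its brighter probe had levels of 0.08, -0.09 and -0.24, lower in each later culture by amounts inside that limit. Wnt11, a further ligand of that kind, had levels of -0.79, -0.73 and -1.06. For Wnt7b, which acts in lung and kidney, they were -0.89, -0.51 and -0.50, with both cellulate cultures above myoblasts by less than the spot limit. Wnt9b, a kidney tubule ligand, showed the same order more strongly, at -1.43, -0.81 and -0.85. Its log2 ratio of 0.62 in BIO cellulates passed the spot limit, while genes of like brightness had a median of 0.19. With median scaling the log2 ratios to myoblasts turned to -0.34 and -0.35 for Wnt7b and to -0.10 and -0.15 for Wnt9b, in BIO and neurogenic cellulates. Wnt6, a ligand of surface ectoderm and somite, was lowest in BIO cellulates, at -1.50, -1.72 and -1.26. Its 1.37-fold difference between the cellulate cultures lay just past the spot limit of 1.35. Its signals there were 34.9 ± 5.7 and 65.1 ± 9.1 units, the ± being the scanner software's error of the spot. That error is a larger share of the signal than for bright probes such as that of Wnt4, so passing the limit is not firm.

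Wnt1, the founding member of the family, had 10 spots on each array, which gives the only repeat measure within the module. Its level was -1.0 ± 0.44 (SD, n = 10 spots) in myoblasts, -1.02 ± 0.10 (n = 8) in BIO cellulates and -1.23 ± 0.11 (n = 9) in neurogenic cellulates. The ranges of these spots overlapped on all arrays. The same spot was the lowest on every array, at -2.10, -2.54 and -2.13. It was marked as an outlier on both cellulate arrays and not on the myoblast array. Without it the myoblast level was -0.88 ± 0.22 (n = 9), and the log2 ratios to myoblasts were -0.14 for BIO cellulates and -0.35 for neurogenic cellulates, in place of -0.02 and -0.23.

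**Figure D2:**
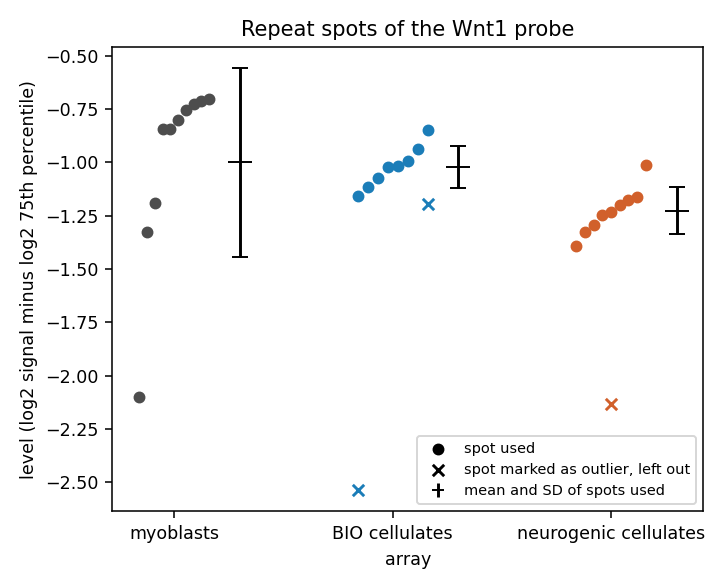
Level of each repeat spot of the Wnt1 probe on the 3 arrays (log2 signal minus log2 75th percentile), with the mean and SD of the spots used; crosses are spots marked as outliers and left out. A single spot near -2.10 stands below the other 9 on the myoblast array and widens its SD to 0.44, while the spots used on the cellulate arrays have SDs of 0.10 and 0.11.

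Wnt8b, a forebrain ligand, passed the background limit in the myoblast culture only, with 13.9 units beside a lowest such signal of 13.6, so no fold could be given. The ligands dim on all arrays, that is with no signal well above background, were Wnt2, Wnt2b, Wnt3, Wnt3a, Wnt5a, Wnt7a, Wnt8a, Wnt10a, Wnt10b and Wnt16. Their RNA was not detectable with these probes, which sets no more than an upper limit on it.

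The Frizzled receptors, which span the membrane and bind Wnt through a cysteine-rich domain, included the member with the largest difference among those measured on all arrays. Fzd2 gave 15514 ± 1551 intensity units in myoblasts, 4887 ± 489 in BIO cellulates and 3325 ± 333 in neurogenic cellulates, the ± being the scanner software's error of the spot. Its levels were 6.42, 5.41 and 4.42, each culture below the one before. The gene was 2.02-fold lower in BIO cellulates than in myoblasts, 1.99-fold lower in neurogenic than in BIO cellulates and 4.01-fold lower in neurogenic cellulates than in myoblasts. A second Fzd2 probe, far fainter, had levels of 0.44, -0.89 and -1.61 in the same order. Its log2 ratios were -1.33, -0.72 and -2.05, against -1.01, -0.99 and -2.01 by the first. The authors' deposited table gave -1.0, -0.99 and -1.99 for the brighter Fzd2 probe and -0.30, -1.48 and -1.78 for Wnt4. Genes of like brightness had median log2 ratios of -0.13, -0.31 and -0.46 in the 3 comparisons, and less that median Fzd2 was at -0.88, -0.69 and -1.54. Over the 9 alternative settings the log2 ratio in BIO cellulates against myoblasts ran from -1.73 to -0.84 and was past 2-fold in 6. That in neurogenic cellulates against myoblasts ran from -2.74 to -1.54 and was past 2-fold in 9. Settings that change the dim-probe filter could not move these ratios, as the probe was above background on all arrays.

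Fzd1, a receptor for canonical Wnt signals, was highest in BIO cellulates, except with median scaling, which turned its log2 ratio to myoblasts from 0.48 to -0.23. Its levels were 3.15, 3.63 and 2.92, with log2 ratios of 0.48 in BIO cellulates against myoblasts and -0.71 in neurogenic against BIO cellulates. The first lies inside the spot limit and the second past it, and genes of like brightness had medians of -0.16 and -0.24. Fzd7, a receptor of muscle satellite cells, had almost equal levels of 0.87, 0.81 and 0.87 by its brighter probe. A second Fzd7 probe did not match this, at 0.08, -0.64 and -1.25, which is a log2 ratio of -1.34 in neurogenic cellulates against myoblasts where the brighter probe gave 0.00. The Fzd8 levels were -0.12, -0.11 and -0.13, the same on all arrays within spot error, while median scaling set BIO and neurogenic cellulates at -0.71 and -0.75 to myoblasts for Fzd8 and at -0.77 and -0.73 for Fzd7.

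Fzd3, Fzd4 and Fzd5 were lowest in myoblasts by the 75th percentile. With median scaling the log2 ratio of Fzd3 in BIO cellulates against myoblasts turned from 0.68 to -0.03, and those of Fzd5 turned from 0.56 to -0.15 in BIO and from 0.37 to -0.36 in neurogenic cellulates. Fzd3, known for guiding axons and for planar cell polarity, had levels of -1.43, -0.75 and -0.42 and was 2.02-fold higher in neurogenic cellulates than in myoblasts, by its only probe above background. The other 2 Fzd3 probes were dim on all arrays. Over the alternative settings the log2 ratio ran from 0.29 to 1.36 and was past 2-fold in 5 of 9. Settings that change the dim-probe filter or the choice of probe could not move it, as 1 probe alone was above background. It fell under 2-fold with median scaling, quantile normalisation, normexp correction and centring on genes of like brightness. The normexp setting adds an offset of 50 units, which by itself narrows ratios of signals this faint. Fzd4, the receptor of norrin in retinal vessels, had levels of -2.73, -1.97 and -1.86, close to the lowest signals well above background. Its log2 ratios to myoblasts of 0.76 and 0.88 were close to the medians of 0.69 and 0.72 for genes of like brightness. Those medians are partly set by the background rule, which at such levels leaves out genes lower than in myoblasts. Fzd5 had levels of -1.35, -0.79 and -0.99 by its only probe above background, and its other probe was dim on all arrays. Fzd6, Fzd9 and Fzd10 were dim on all arrays.

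**Figure D3:**
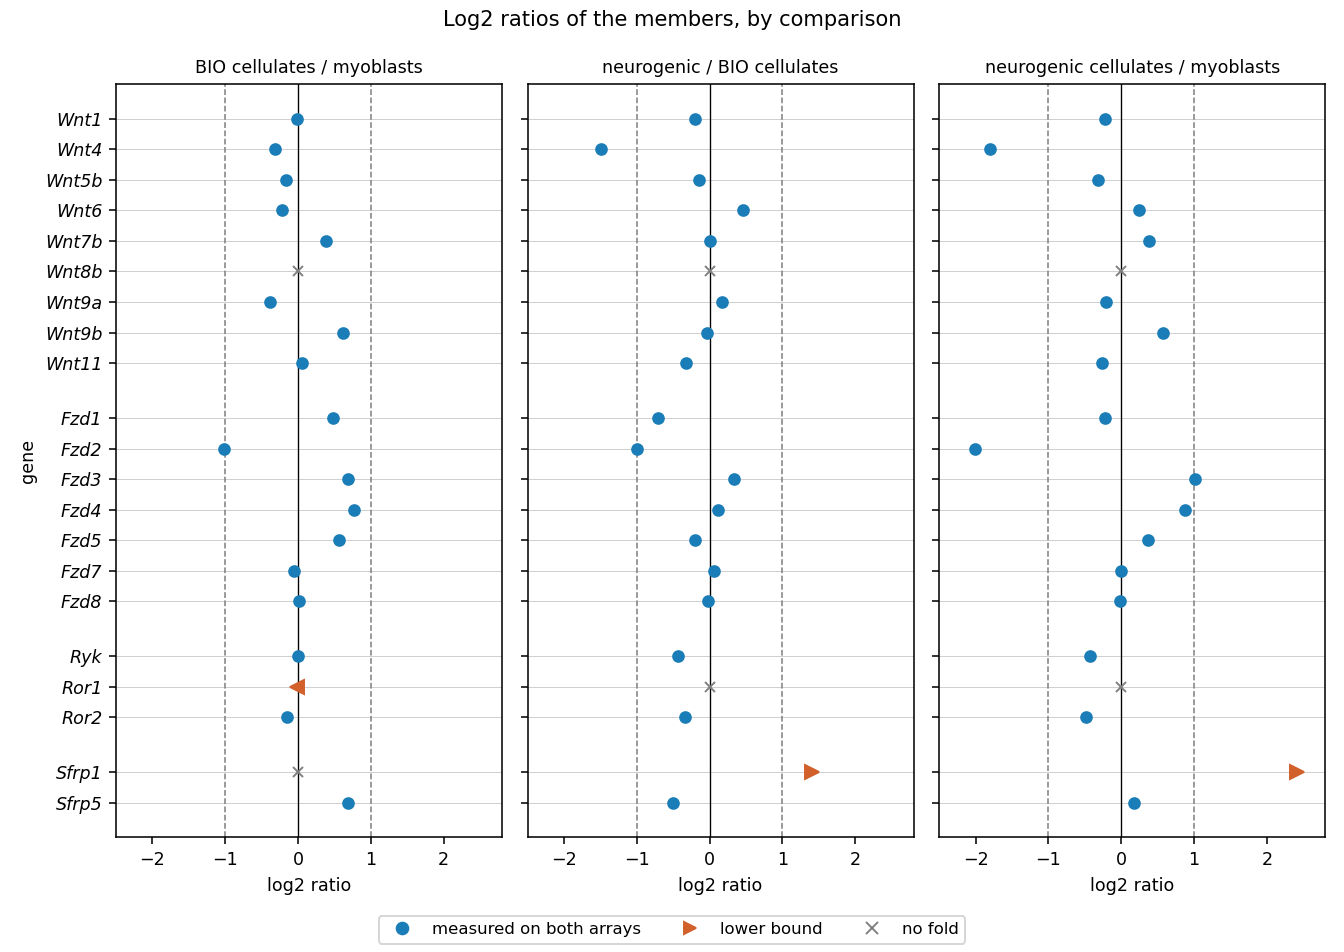
Log2 ratio of each measured member in the 3 comparisons, by gene; circles are genes measured on both arrays, triangles are lower bounds, crosses mark genes with no fold, and dashed lines mark 2-fold. Most circles lie between the dashed lines, while Fzd2 and Wnt4 reach -2.01 and -1.80 in neurogenic cellulates against myoblasts and Sfrp1 has a bound of 2.41 there.

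Among the other receptors, Ryk, a catalytically inactive kinase that binds Wnt, had levels of 3.62, 3.62 and 3.20 by its brighter probe and of 1.99, 2.28 and 1.87 by the fainter. Both probes placed neurogenic cellulates lowest, by log2 ratios of -0.43 and -0.41 against BIO cellulates, inside the spot limit. Ror2, a receptor kinase for Wnt5a, had levels of 1.88, 1.72 and 1.39 by its brighter probe, lower in each later culture by less than the spot limit. Ror1, its close relative, passed the background limit in the myoblast culture only, with a level of -2.72. The lowest level well above background on the BIO array was -2.73, so the bound by that rule was 1.01-fold lower in BIO cellulates. Since a probe of another gene was dim there at -2.33, that bound is nominal and no direction is shown. Against neurogenic cellulates, where the lowest such level was -2.57, no fold could be given.

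The secreted antagonists bind Wnt proteins directly, as the SFRP proteins do with a Frizzled-like domain, or block LRP5 and LRP6, as DKK1 does. Sfrp1 gave 8.1 ± 3.1 intensity units in myoblasts, 8.3 ± 3.9 in BIO cellulates and 62.2 ± 8.4 in neurogenic cellulates. The first 2 values were not well above background and the third was. Sfrp1 was at least 2.66-fold higher in neurogenic than in BIO cellulates and at least 5.32-fold higher than in myoblasts. A second Sfrp1 probe, with a level of -4.04 in neurogenic cellulates, was dim on all arrays, so the call rests on 1 probe. With normexp background correction these bounds fell under 2-fold, to log2 ratios of 0.49 and 0.99. That setting adds an offset of 50 units, which by itself narrows ratios of signals this faint. Sfrp5 was the other antagonist gene above background, with levels of -1.64, -0.96 and -1.46, highest in BIO cellulates by 1.60-fold over myoblasts and 1.42-fold over neurogenic cellulates. With median scaling its log2 ratio of BIO cellulates to myoblasts went from 0.68 to -0.04. Sfrp2, Sfrp4, Dkk1, Dkk2, Dkk3 and Dkk4 were dim on all arrays.

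Brightness moved with the direction of the ratios. Over all genes measured on both arrays, those with a mean level under -2 had a median log2 ratio of 0.74 in BIO cellulates against myoblasts, those from -2 to -1 one of 0.28, and those of 2 and above one of -0.17. For neurogenic cellulates against myoblasts the same medians were 0.76, 0.21 and -0.41. These genes had to be well above background on both arrays. The lowest such level was -3.73 in myoblasts, -2.73 in BIO cellulates and -2.57 in neurogenic cellulates. Close to it, that rule leaves out genes lower than in myoblasts, and 0% of those under -2 were at least 2-fold lower. The medians under -2 are thus partly set by the rule. Genes dim on both arrays had medians of 1.01 and 1.14. Of the 18 members, 5 were higher in BIO cellulates than in myoblasts past the spot limit, namely Fzd3, Fzd4, Fzd5, Sfrp5 and Wnt9b, beside 21.2% of all genes measured on both arrays. Fzd2 was the 1 member lower past it, beside 18.1%. After subtracting the median of genes of like brightness, Fzd1 and Fzd2 were the members past that limit in this comparison, Fzd1 higher and Fzd2 lower. Between the cellulate arrays, Wnt6 was the 1 member higher past the spot limit, beside 8.66% of genes, and Fzd1, Fzd2, Sfrp5 and Wnt4 were the 4 lower, beside 20.2%. Since the limit is pooled over probes of any brightness, passing it is not firm for faint members such as Wnt6 and Sfrp5. In neurogenic cellulates against myoblasts, Fzd3, Fzd4 and Wnt9b were the 3 higher, beside 20.9%, and Fzd2 and Wnt4 the 2 lower, beside 31%. With the median of like genes subtracted, Fzd3 stayed higher and Fzd2 and Wnt4 lower in that last comparison. The part of brightness in each gene's ratio was not tested.

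**Figure D4:**
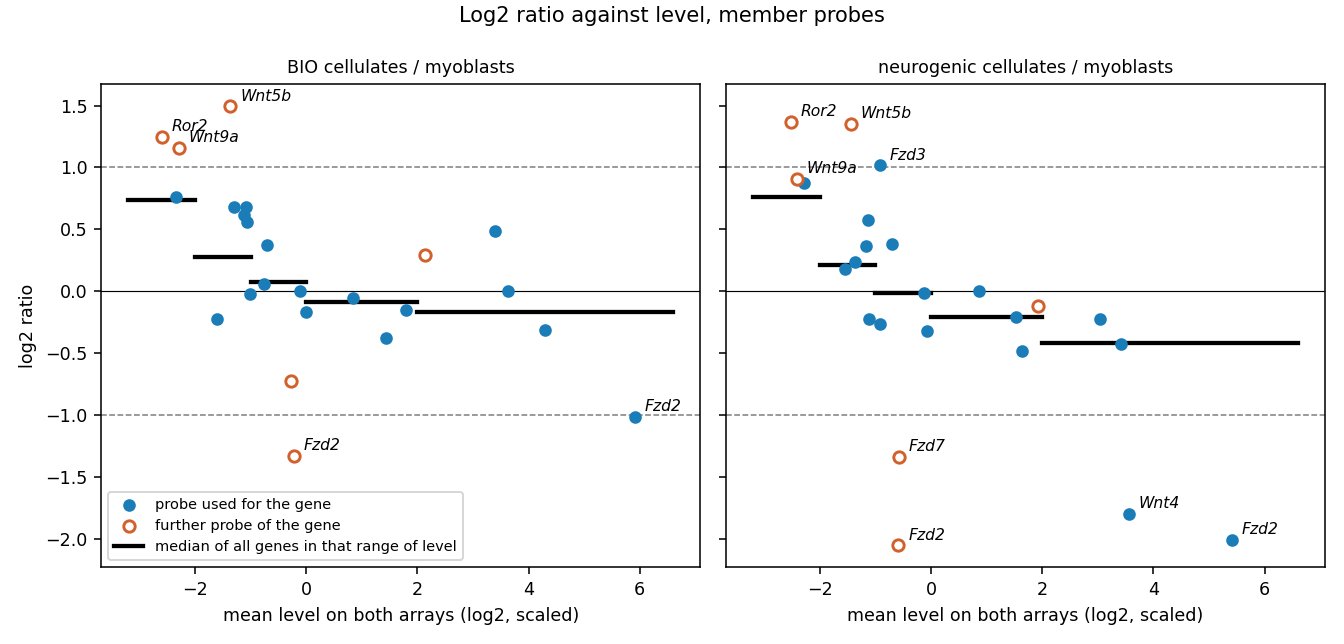
Log2 ratio of each member probe well above background on both arrays against its mean level on them, for BIO cellulates (left) and neurogenic cellulates (right) over myoblasts; black lines are the median of all genes in that range of level and dashed lines mark 2-fold. The lines step down from 0.74 to -0.17 on the left and from 0.76 to -0.41 on the right, and the faint further probes of Ror2, Wnt5b and Wnt9a lie at the upper left, apart from the probes used for those genes.

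Probes of a single gene could differ in either direction. In 6 member genes, 2 probes were well above background on all arrays. Against myoblasts, the probes of Fzd2 and of Ryk stayed within 2-fold of each other. For Fzd7 the fainter probe was the lower, at -0.73 against -0.05 in BIO cellulates and -1.34 against 0.00 in neurogenic cellulates. For Wnt5b the fainter probe had levels of -2.11, -0.62 and -0.76, so that BIO cellulates were at a log2 ratio of 1.49 to myoblasts by this probe and at -0.17 by the brighter. Wnt9a gave 1.16 by its fainter probe and -0.38 by its brighter, and Ror2 gave 1.24 and -0.15. In these 3 genes the fainter probe would put the gene past 2-fold higher and the brighter would not. The fainter probe had the higher ratio of BIO cellulates to myoblasts in 4 of the 6 members, and in 55.1% of all 2932 genes with 2 such probes. The ratios were at least 2-fold apart in 3 of the 6 and in 8.94% of all. Among 453 of those genes, with levels at least 4-fold apart and the fainter under a mean of -1, as for Ror2 and Wnt9a, the shares were 67.1% and 22.1%. For neurogenic cellulates against myoblasts, the ratios were at least 2-fold apart in 4 of the 6, and in 11.9% of all genes with 2 such probes. There Ror2 was at 1.37 by its fainter probe and at -0.48 by its brighter. Between the cellulate arrays, the probes of all 6 member genes were within 2-fold of each other.

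**Figure D5:**
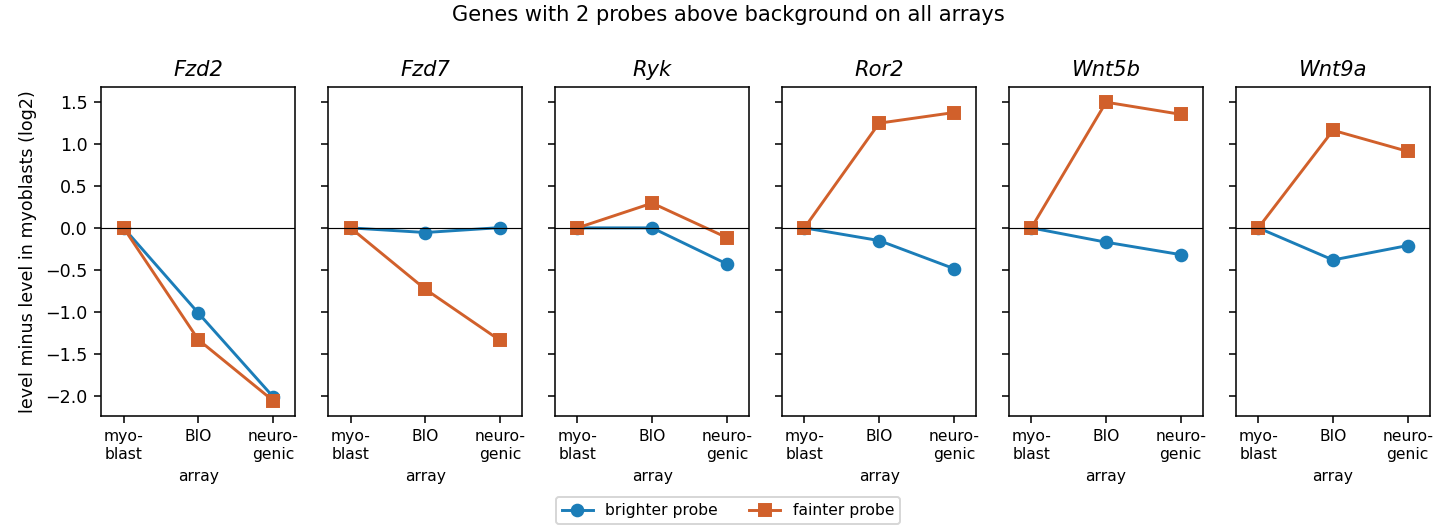
Level minus the level in myoblasts (log2) on the 3 arrays for the brighter (circles) and fainter (squares) probe of the 6 member genes with 2 probes well above background throughout. Both Fzd2 probes end near -2.01 and -2.05, the fainter Fzd7 probe ends at -1.34 while the brighter ends at 0.00, and the fainter probes of Ror2, Wnt5b and Wnt9a stand at 1.24, 1.49 and 1.16 in BIO cellulates, with their brighter probes below 0.

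Other genes of the pathway were read from 3 lists. Of 31 genes for Wnt secretion and for extracellular modifiers, 20 had a value for BIO cellulates against myoblasts, and 2 were at least 2-fold higher and 1 lower, beside 11.2% and 6.01% of all genes. Rnf43, a ligase that removes Frizzled from the cell surface, had a log2 ratio of 2.90 and Sost, an antagonist that binds LRP5 and LRP6, one of 1.20, while Tpbg, a membrane glycoprotein that dampens canonical signalling, was at -1.63. In neurogenic against BIO cellulates 1 of 19 was higher and 2 lower, beside 4.16% and 1.8%. Wif1, which binds Wnt proteins, was at -2.23 and Kremen1, a DKK1 receptor, at -1.49, and Sulf2, a heparan sulfate sulfatase, had a bound of 1.19. Sulf2 had a level of -1.54 in neurogenic cellulates, and a probe of another gene was dim on the BIO array at -2.33, so 2-fold is not firm there. Neurogenic cellulates against myoblasts had 5 of 23 higher and 4 lower, beside 12.1% and 10%. The higher were Rnf43 at 2.10, Igfbp4 at 1.33, and Sulf2 and the proteoglycan gene Gpc3 with bounds of 2.19 and 1.88, with Sost at 1.12. The lower were Wif1 at -2.78, the R-spondin gene Rspo1 at -1.78, its receptor gene Lgr4 with a bound of -1.78, and Nog, a BMP antagonist gene, at -1.47. With median scaling 1 was higher and 7 lower in BIO cellulates against myoblasts, and 3 and 8 in neurogenic cellulates against myoblasts. Rspo1, whose protein keeps Frizzled receptors at the surface, had levels of 5.62, 4.74 and 3.84, lower in each later culture, as Fzd2 was.

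Of the 42 genes of the intracellular beta-catenin pathway with a probe, 39 had a value for BIO cellulates against myoblasts, with 1 at least 2-fold higher and 4 lower, beside 11.2% and 6.01% of all genes. Nkd2, a feedback inhibitor gene, was at 2.12 on the log2 scale, and the transcription factor gene Lef1 was at -1.32, the GSK-3 binding gene Frat1 at -1.19, and the co-repressor gene Tle1 and the scaffold gene Amer1 at -1.05 each. In neurogenic against BIO cellulates 0 of 37 were higher and Nkd2 was the 1 lower, with a bound of -2.25, beside 4.16% and 1.8%. Against myoblasts, neurogenic cellulates had 0 of 39 higher and 3 lower, Frat1 at -1.63, Tcf7l2 at -1.29 and Amer1 at -1.28, beside 12.1% and 10%. With median scaling 13 were lower in BIO and 21 in neurogenic cellulates against myoblasts, and with quantile normalisation 4 and 2. The median log2 ratios of this list were -0.20, -0.06 and -0.30.

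Planar cell polarity and calcium branch genes had 36, 36 and 35 members with a value in the 3 comparisons. In BIO cellulates against myoblasts 3 were higher and 0 lower, beside 11.2% and 6.01% of all genes: the calmodulin kinase gene Camk2a at 2.04, and the kinase gene Mapk10 and the cadherin gene Celsr1 with bounds of 1.70 and 1.51. Between the cellulate cultures 0 were higher and 0 lower, beside 4.16% and 1.8%. In neurogenic cellulates against myoblasts 2 were higher and 6 lower, beside 12.1% and 10% of all genes, among the lower the polarity gene Scrib at -1.45, the GTPase genes Rac1 at -1.30 and Cdc42 at -1.19, and the receptor-like gene Ptk7 at -1.19. Those 6 lower genes were 1 with quantile normalisation, 1 with the percentile over measured probes, 1 after centring on genes of like brightness and 15 with median scaling. The median log2 ratios of the 3 lists lay between -0.30 and 0.00, beside medians of 0.00, -0.17 and -0.06 over all genes.

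Of 5 markers of dividing cells, 4 were at least 2-fold lower in both cellulate cultures than in myoblasts, namely Mki67, Ccnb1, Cdk1 and Bub1b, where Fzd2 was also lower. Top2a went the other way, dim in myoblasts and BIO cellulates and at least 2.46-fold higher in neurogenic cellulates than in myoblasts by the bound rule. Its level in neurogenic cellulates was -2.43, and a probe of another gene was dim in myoblasts at -3.32, so 2-fold is not firm for Top2a. The list summed to 68.5, 8.36 and 8.93 times the 75th percentile signal in myoblasts, BIO cellulates and neurogenic cellulates, with 4, 4 and 5 genes well above background. The 8 skeletal muscle markers summed to 222, 2175 and 1823, of which 5 were at least 2-fold higher and 1, Cdh15, lower in BIO cellulates than in myoblasts. Of 5 fibroblast markers 3 were well above background on each array, and they did not run together. Col1a1 was 3.25-fold and Col1a2 1.36-fold lower in neurogenic cellulates than in myoblasts and Dcn was 6.58-fold higher, while Lum and Pdgfra were dim throughout. The fibroblast sums of 2139, 1678 and 1379 were mostly the 2 collagens. Of 5 astrocyte and glia markers with a value, neurogenic cellulates had 1 higher than myoblasts and 0 lower, beside 12.1% and 10% of all genes. It was Aldh1l1, by 4.75-fold, from a low level of -2.84. Of 4 chondrocyte markers 0 were higher and 1 lower there, and of 3 osteoblast markers with a value 0 and 2. The 3 adipocyte markers with a value had 0 of either. Of 9 neuron markers 5 were well above background on each array, with sums of 11.0, 6.5 and 6.39, mostly Tubb3 and Map2, which were lower in both cellulate cultures. Nefm was at least 4.6-fold higher in neurogenic cellulates than in myoblasts, while Snap25, Syp and Nefl were dim on all arrays. Stmn2 and Elavl3 were 2.03-fold and 2.24-fold higher in BIO cellulates than in myoblasts, from low levels of -2.92 and -3.36. Of all genes measured on both arrays with a mean level under -2, as these 2 have, 30.3% were at least 2-fold higher in that comparison. The share lower was 0%, since the background rule leaves out low ratios there, so the 30.3% is partly set by that rule. The part of these differences in the values of Fzd2, Wnt4 and Sfrp1 was not tested, and in such bulk RNA fewer cells of a type and less RNA per cell cannot be told apart.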

How the data were processed

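Single-colour arrays of 3 C2C12 cultures were analysed, 1 array per group, all on 1 slide, from 200 ng of total RNA per the labels. The deposited intensity of each spot is the processed signal of Agilent Feature Extraction, version 10.7.3.1 per the file headers, for design 014868 (build mm9). The authors' deposited table of log2 values served as an alternative; its scaling is not stated, and it held 0 columns of other samples.

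From the intensities, control and outlier spots were left out, spots of a probe were averaged as log2, and each array was scaled to its 75th percentile over non-control spots. Of 41174 probes, 26918 could be named through their accessions in a RefSeq table (assembly GRCm38.p6), which left 14256 without a name. A gene took its probe with the highest mean, and 2-fold was the threshold. The number of arrays limits the precision. No ratio was given to genes measured on neither array, or dim by the probe used on an array where another of their probes was well above background.

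Members and lists were chosen with earlier results of these data known. Named were all members well above background on any array and, per list, up to 4 genes past 2-fold in each direction by measured difference; list genes known by a bound alone were named after their values were seen. Python 3.11.15, pandas 2.3.3, R 4.3.3 and limma 3.58.1 (normexp with offset 50 on median spot and background signals, since no mean spot signal was used here, and quantile normalisation) were used, and the ratio and bound code was tested on simulated data. Other scalings, background correction, dim-probe filters, probe choice and the deposited table were tried as 8 alternatives, and 2 more were added after the data were seen.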

Additional observations from a re-analysis of the deposited data

How the results depend on the processing

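No paired analysis was possible because each group has 1 array. Fzd2 and Wnt4 were at least 2-fold lower in neurogenic cellulates than in myoblasts under all 9 settings. Wnt4 in neurogenic against BIO cellulates was likewise past 2-fold lower under all 9. No member ratio past 2-fold by the main processing turned its sign. With median scaling Wnt9a in BIO cellulates, and Ror2 and Wnt5b in neurogenic cellulates, were past 2-fold lower than in myoblasts. Over the settings these ratios ran from -1.10 to 0.39, -1.21 to 0.44 and -1.05 to 0.52. The other counts moved. Members at least 2-fold lower in BIO cellulates than in myoblasts numbered 1 (Fzd2), but 3 with each array scaled to its median, 0 with quantile normalisation, 0 with the 75th percentile taken over measured probes, 0 after centring on genes of like brightness (added after the data were seen) and 2 with no filter on dim probes; 0 were higher, or 11 with no filter, all of them dim on both arrays. In neurogenic against BIO cellulates, the 1 higher member (Sfrp1) became 0 with normexp correction, 0 in the deposited table, 0 among genes measured on both arrays and 0 after centring, the last 3 because a gene dim on 1 array gets no value there; the 1 lower member became 2 with median scaling and 2 with no filter. In neurogenic cellulates against myoblasts, the 2 higher members became 1 with median scaling, 1 after quantile normalisation, 0 with normexp correction, 11 with no filter, 1 among genes measured on both arrays, 1 in the deposited table and 0 after centring; the 2 lower became 5 with median scaling. The median log2 ratio of all genes was -0.66, -0.19 and -0.79 in the 3 comparisons with median scaling, and 0.13, 0.00 and 0.12 with the percentile over measured probes, in place of 0.00, -0.17 and -0.06. Of all genes compared, 28.9% were then at least 2-fold lower in BIO cellulates than in myoblasts and 38.9% in neurogenic cellulates than in myoblasts with median scaling. The cause of the other moves was not tested, though the offset of 50 in normexp correction by itself narrows ratios of faint signals. Of the member ratios under these settings, 419 stayed within the SD of spot differences and 106 moved by more. The 419 include ratios that could not move, so the count is no measure of stability. For a gene above background on both arrays, dropping the dim-probe filter or keeping only such genes gives the main ratio again. So does the median over probes where 1 probe alone is above background. Signal over background limits the 19 members dim on all arrays to an upper limit.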
